A study of Mus musculus with 7 samples.

Results

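The 53 genes described here encode Wnt ligands, the proteins that secrete and receive them, secreted inhibitors, feedback targets and nuclear effectors. They were chosen by symbol from a list, and all 53 were found among the 38579 gene entries of the deposited table. RNA was sequenced from 7 libraries of freshly sorted primary fetal mammary cells of CD1 mice at stage E17.5, and the study set side by side a pair of ways to sort the epithelial and the stromal cells. The first way, called the CD24 sort here, gave 2 libraries of CD24+CD49f+ lineage-negative cells, labelled fetal mammary stem cells (fMaSC), and 2 libraries of CD24low lineage-negative cells (CD24 low or negative in the titles), labelled fetal stroma. The second, called the Sox10 sort, used a Venus fluorescent reporter of Sox10 together with EpCAM, and gave 2 libraries of Sox10+EpCAM+ fMaSC and 1 library of EpCAM-negative stroma, which its title also gives as Sox10-negative and lineage-negative. That stroma group has no replicate and no SD. Both fMaSC names stand for cell fractions defined by surface markers or a reporter and not for single stem cells. The labels call the libraries biological replicates without tying them to litters. A p-value here therefore sets a difference against the spread between these libraries. The lone EpCAM-negative library adds nothing to the spread within groups.

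Wnt proteins are secreted lipid-bearing signals. In the canonical branch they bind Frizzled receptors with the co-receptors Lrp5 and Lrp6, which stabilizes beta-catenin (Ctnnb1) and lets it act with the Lef1 and Tcf factors on target genes such as Axin2; other Wnt proteins signal through Ror and Ryk receptors without beta-catenin. R-spondins bound to Lgr receptors raise the number of Frizzled receptors at the membrane by removing the ubiquitin ligases Rnf43 and Znrf3. Wnt signalling between epithelium and mesenchyme is known to be needed for the formation of mammary buds, and Lgr5 is known as a marker of stem and progenitor cells in several epithelia.

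Levels are given in FPKM, in which fragments are scaled by transcript length and library size, a unit that allows levels of different genes to be compared. Differences between groups are differences in log2(FPKM + 1), on which the change of a weakly expressed gene comes out too small, and were tested with limma across 14418 genes that reached 1 FPKM in at least 2 libraries. A member was called where its Benjamini-Hochberg adjusted p over all genes tested was under 0.05. Of the 53 members 45 passed the filter on low values and 8 did not (Wnt3, Wnt4, Wnt7b, Wnt10a, Fzd10, Frzb, Lef1 and Notum). In bulk RNA, fewer cells of a type and less RNA per cell cannot be told apart.

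Depth, estimated from the lowest values, lay between 22800000 and 34600000 fragments, and a library held 12790 to 13639 genes at 1 FPKM or more. The fractions carried the epithelial or stromal markers of their labels, with those of other cell types beside them. The 6 epithelial markers (Epcam, Cdh1, Krt8, Krt18, Krt14 and Krt5) summed to 651 and 779.9 FPKM in Sox10+EpCAM+ fMaSC and to 473 and 297 in CD24+CD49f+ fMaSC, against 1.92 to 6.07 in stroma. All 6 fibroblast markers (Col1a1, Col3a1, Dcn, Lum, Pdgfra and Pdgfrb) were detected in every library, and they summed to 37.6 and 59.4 FPKM in Sox10+EpCAM+ fMaSC, 1632 and 2533 in CD24+CD49f+ fMaSC and 4716 to 5521 in stroma. Adipocyte markers (4 genes) summed to 12.1 and 17.6, 203 and 525, and 703 to 1171 FPKM in the same order, and pericyte markers (4 genes) to 0.755 and 1.45, 17.7 and 30.1, and 78.3 to 104 FPKM. Markers of Schwann cells and glia (4 genes) were highest in CD24+CD49f+ fMaSC, at 86.5 and 154 FPKM against 7.22 to 15.7 elsewhere. Haemoglobin and other erythroid genes (4 genes) summed to 5549 FPKM in CD24+CD49f+ fMaSC replicate 1 and to 69.5 to 575 in the other 6 libraries. Mast cell markers (4 genes) summed to 217 and 148 FPKM in CD24low stroma and to 2.96 to 21.8 elsewhere, and melanoblast markers (4 genes) to 16.5 and 21.6 in Sox10+EpCAM+ fMaSC and 2.28 to 11.4 elsewhere. Mitochondrial genes took 19.0% and 15.6% of the summed FPKM in Sox10+EpCAM+ fMaSC, 6.23% in its stroma, 17.9% and 9.94% in CD24+CD49f+ fMaSC and 10.9% and 17.7% in CD24low stroma. The part of these cells in the results was not tested.

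In the CD24 sort 18 of the 45 members tested were called, 15 higher and 3 lower in fMaSC than in stroma, against 10.7% of all genes tested (7.78% higher and 2.94% lower). In the Sox10 sort 26 were called, 17 higher and 9 lower, against 26.1% of all genes tested (12.5% higher and 13.6% lower). A fit of both sorts together, with the sort as a covariate, called 22 members, 17 higher and 5 lower, against 25.1% of all genes tested (15.6% higher and 9.5% lower). The 2 sorts share no library, but their tests use a common estimate of the spread from all 7 libraries. Without either Sox10+EpCAM+ library, for instance, only 13 members were called in the CD24 sort. The calls are therefore not independent between the 2 sorts. In both of them 14 members were called higher in fMaSC (Wnt5b, Wnt6, Fzd3, Fzd6, Fzd7, Fzd9, Sfrp1, Wif1, Lgr4, Lgr5, Lgr6, Tcf7, Nkd2 and Rnf43) and 3 were called lower (Wnt2, Wnt2b and Wnt10b), and 0 members were called in opposite directions. Over all genes tested 6.78% were called higher in both sorts, 2.71% lower in both and 0.0832% in opposite directions. The median difference over the members tested was 0.24 in the CD24 sort and 0.02 in the Sox10 sort, beside 0.13 and 0.09 over all genes tested. When values were scaled to a fixed total (TPM), the Sox10 sort gave 6 members higher and 9 lower, and the median of all genes moved to -0.63. That scaling ended the calls of Wnt5b, Fzd3, Fzd7, Lgr4, Lgr5, Lgr6 and Nkd2 in both sorts. It also ended those of Wnt2b and Tcf7 in the CD24 sort and of Wnt6, Fzd1, Znrf3, Porcn and Ctnnb1 in the Sox10 sort. The summed FPKM of a library ran from 378952 (EpCAM-negative stroma) to 752737 (CD24+CD49f+ fMaSC replicate 1). Relative to these totals Fzd7, Porcn and Ctnnb1 were lower in the latter library than in the former. Statements below that compartments did not overlap therefore hold for FPKM as deposited. The calls of the CD24 sort fell to 8 when CD24low stroma replicate 2 was left out, which ended those of Wnt2, Wnt2b, Wnt5b, Wnt6, Fzd3, Fzd7, Sfrp5, Lgr4, Lgr6 and Tcf7. They fell to 11 without CD24low stroma replicate 1, which ended those of Wnt2b, Fzd3, Fzd7, Sfrp5, Wif1, Lgr4 and Lgr6. In the Sox10 sort the calls of Wnt10b, Fzd1, Fzd7, Lgr6, Znrf3, Porcn and Ctnnb1 were lost without either Sox10+EpCAM+ library. That of Wnt11 was lost without Sox10+EpCAM+ replicate 1 and that of Wnt6 without replicate 2. Those of Fzd1, Znrf3, Porcn and Ctnnb1 were also lost without either CD24low stroma library.

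**Figure D1:**
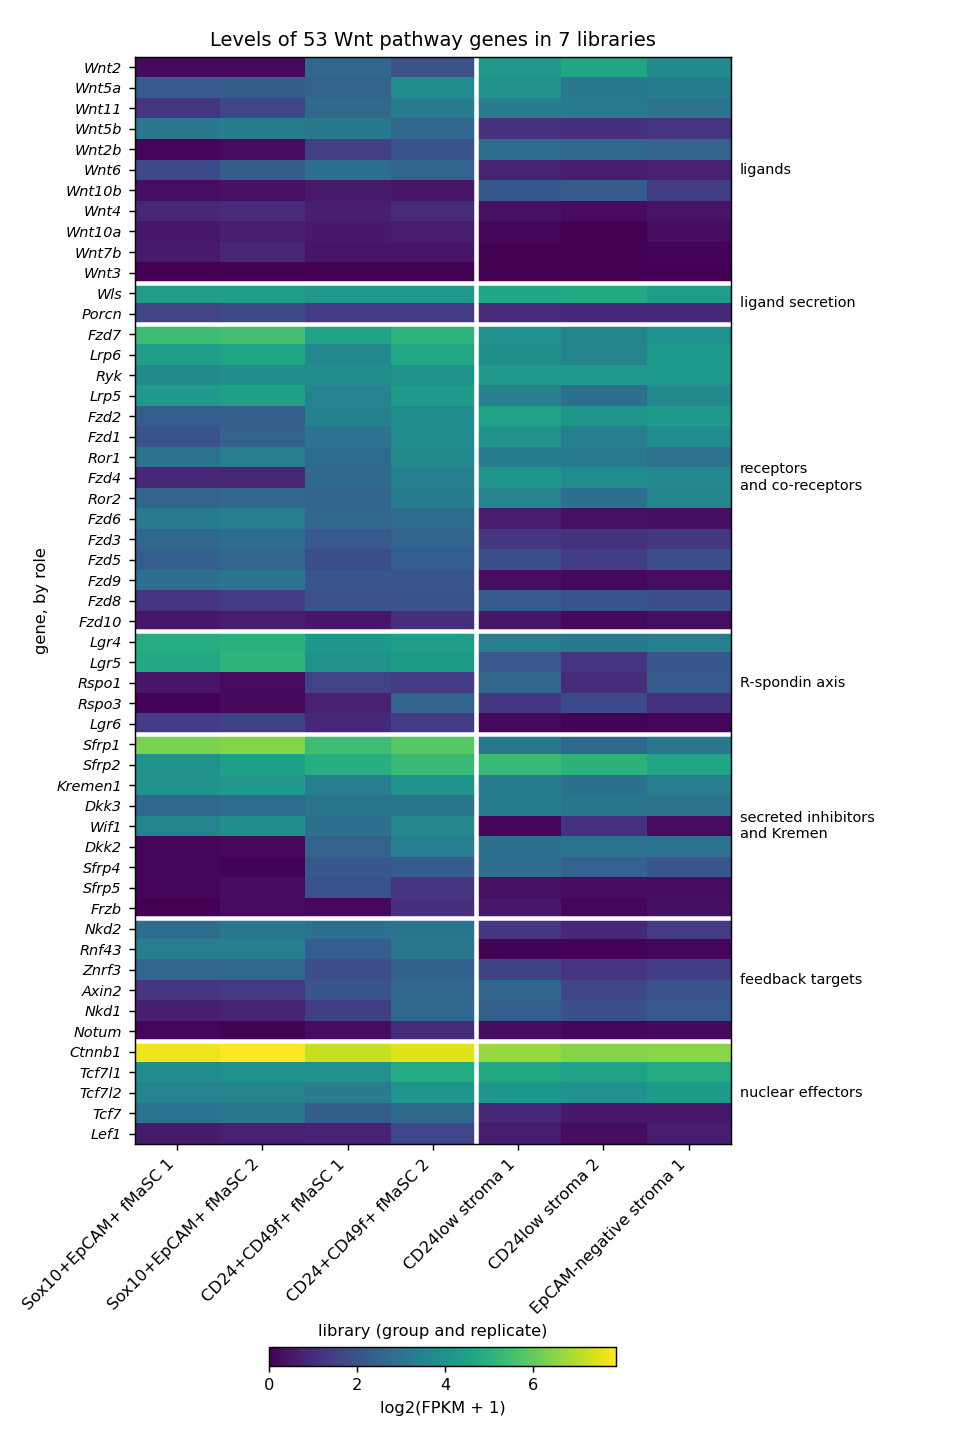
Levels of the 53 genes on the log2(FPKM + 1) scale (colour) in each of the 7 libraries (columns), with genes in rows grouped by role and ordered by mean level, and a white line between the 4 fMaSC and the 3 stroma libraries. Ctnnb1 is the brightest row in every library, Sfrp1, Lgr5 and Rnf43 are brighter in the 4 fMaSC libraries, and Wnt2 and Fzd4 are brighter in the 3 stroma libraries.

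The ligands divided between the compartments. Of the 11 ligands 7 were tested; Wnt5b and Wnt6 were called higher in fMaSC in both sorts, Wnt2, Wnt2b and Wnt10b were called lower in both, and Wnt11 was called lower in the Sox10 sort. Summed over the 11 genes, ligand RNA stood at 17.51 and 21.9 FPKM in Sox10+EpCAM+ cells, 33.1 and 40.03 in CD24+CD49f+ cells, 53.7 and 51.7 in CD24low stroma and 37.0 in the EpCAM-negative library. The most abundant ligand also differed. Wnt5b held 43.9% and 40.5% of the sum in Sox10+EpCAM+ fMaSC, and Wnt2 held 33.7% and 46.4% in CD24low stroma and 33.5% in the EpCAM-negative library. In CD24+CD49f+ fMaSC the leading ligand was Wnt5b in replicate 1 (24.1%) and Wnt5a in replicate 2 (32.3%).

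Wnt5b (ENSMUSG00000030170, chromosome 6, 119432531 to 119544347 on the minus strand of GRCm38) encodes a ligand mostly linked to beta-catenin-independent signalling. Its level was 7.69 and 8.86 FPKM in Sox10+EpCAM+ cells, 7.98 and 5.25 in CD24+CD49f+ cells, 1.19 and 1.13 in CD24low stroma and 1.31 in the EpCAM-negative library. The 4 fMaSC libraries all lay above the 3 stroma libraries, by 1.79 ± 0.22 (SE) on the log2 scale in the CD24 sort (limma, adjusted p = 0.0057) and by 2.00 ± 0.27 in the Sox10 sort (adjusted p = 0.0035). Wnt6 (ENSMUSG00000033227), a ligand of surface and ductal epithelia, stood at 2.43 and 3.99 FPKM in Sox10+EpCAM+ cells, 6.14 and 4.79 in CD24+CD49f+ cells, 0.734 and 0.569 in CD24low stroma and 0.661 in the EpCAM-negative library. It too separated all fMaSC from all stroma libraries, with differences of 1.96 ± 0.23 in the CD24 sort (limma, adjusted p = 0.0053) and 1.32 ± 0.29 in the Sox10 sort (adjusted p = 0.020). Wnt6 lies on chromosome 1 (74771892 to 74785319, plus strand), 6193 bases before Wnt10a on the same strand (74791516 to 74804179). Wnt10a did not pass the filter; its level ran from 0.436 to 0.584 FPKM in the 4 fMaSC libraries and from 0.0174 to 0.187 in the 3 stroma libraries, so that the neighbours shared the order of the compartments.

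Wnt2 (ENSMUSG00000010797, chromosome 6, 17988940 to 18030585, minus strand) encodes a ligand known from the mesenchyme of several organs. It stood at 0.149 and 0.124 FPKM in Sox10+EpCAM+ cells, 4.99 and 2.86 in CD24+CD49f+ cells, 18.1 and 24.0 in CD24low stroma and 12.4 in the EpCAM-negative library. The 4 groups did not overlap, and the difference was -2.18 ± 0.26 in the CD24 sort (limma, adjusted p = 0.0053) and -3.56 ± 0.32 in the Sox10 sort (adjusted p = 9.7e-04). Wnt2b, its close paralogue, stood at 0.0980 and 0.170 FPKM in Sox10+EpCAM+ cells, 1.84 and 3.04 in CD24+CD49f+ cells, 5.83 and 5.20 in CD24low stroma and 4.53 in the EpCAM-negative library. Its call in the CD24 sort (-0.94 ± 0.21, limma, adjusted p = 0.043) was kept in 3 of 12 other settings, while that in the Sox10 sort (-2.29 ± 0.26, adjusted p = 0.0021) was kept in all 11 that could be fitted with it. Wnt10b, a canonical ligand of the mammary bud, stood at 0.212 and 0.267 FPKM in Sox10+EpCAM+ cells, 0.491 and 0.382 in CD24+CD49f+ cells, 3.52 and 3.85 in CD24low stroma and 1.67 in the EpCAM-negative library. Every fMaSC library lay under 0.5 FPKM and every stroma library above 1.5, and the differences were -1.71 ± 0.15 (limma, adjusted p = 0.0019) and -1.11 ± 0.18 (adjusted p = 0.0074) in the 2 sorts.

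Wnt11, a ligand linked to cell movement, stood at 1.29 and 2.12 FPKM in Sox10+EpCAM+ cells, 5.58 and 8.86 in CD24+CD49f+ cells, 8.88 and 8.68 in CD24low stroma and 6.94 in the EpCAM-negative library. It was called in the Sox10 sort (-1.57 ± 0.32, limma, adjusted p = 0.015) and not in the CD24 sort, where fMaSC replicate 2 reached the level of stroma and replicate 1 did not (-0.28 ± 0.26, adjusted p = 0.55). Wnt5a, a non-canonical ligand, was called in 0 of the comparisons between fMaSC and stroma; it ran from 3.91 to 12.9 FPKM in fMaSC and from 8.08 to 15.1 in stroma. Of the low ligands, Wnt4 ran from 0.586 to 0.993 FPKM in fMaSC and from 0.179 to 0.329 in stroma, and Wnt7b from 0.348 to 0.791 and from 0.0250 to 0.0559. Wnt3 stayed at or under 0.0368 FPKM and was listed at 0 in 4 of 7 libraries. When no filter was applied, the fit of both sorts called Wnt4, Wnt7b and Wnt10a higher in fMaSC, by 0.52 (limma, adjusted p = 0.032), 0.49 (adjusted p = 0.023) and 0.45 (adjusted p = 0.016).

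**Figure D2:**
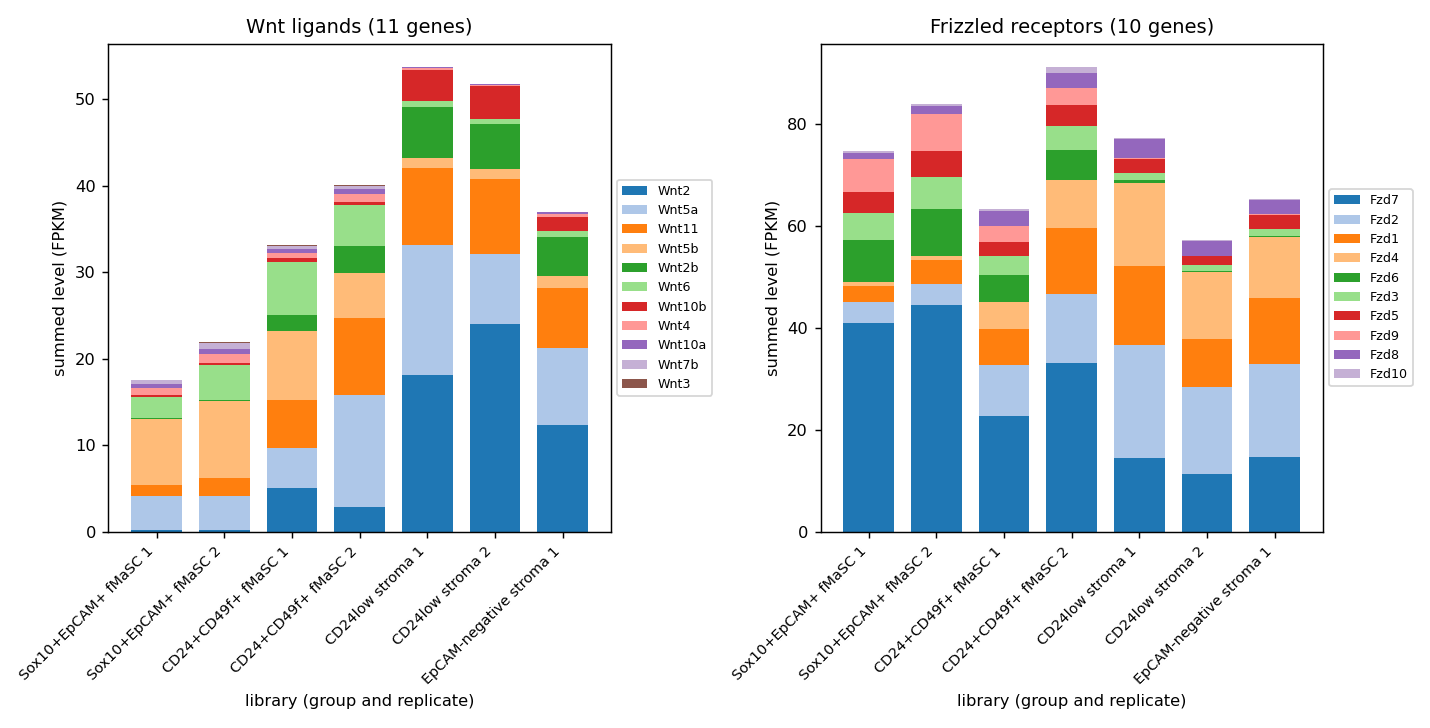
Stacked bars of the levels (FPKM) of the 11 Wnt ligands (left) and the 10 Frizzled receptors (right) in each library, each colour a gene. Wnt2 fills much of the ligand bars of the 3 stroma libraries and almost nothing of the Sox10+EpCAM+ fMaSC bars, and Fzd7 is the largest part of the receptor bars of the 4 fMaSC libraries.

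Promoter sequences of the members were searched as well. RefSeq windows from 250 bases before to 50 after an annotated start (GRCm38.p6) were found for 35 of the 53 members, 45 windows in all. They were searched for the core of the TCF/LEF motif, CTTTGAA or CTTTGAT, on both strands; the 2 words differ in their last letter and cannot match at the same place. The motif was found in 2 of the 45 windows (4.44%), beside 8.65% of all 32851 windows of the table. The matches lay in 1 of 3 windows of Wnt5b, a ligand called higher in fMaSC, and in 1 of 2 windows of Wnt11, a ligand called lower in the Sox10 sort. The stretches before these starts are shown with the match in capitals, read 5′ to 3′ on the strand of the gene. The Wnt5b stretch is chr6:119449404-119449503 (minus strand), inside the annotated gene and outside its exons, with the match starting 71 bases before the start. The Wnt11 stretch is chr7:98835015-98835111 (plus strand), outside any annotated gene, with the match on the opposite strand and starting 51 bases before the start.
Wnt5b: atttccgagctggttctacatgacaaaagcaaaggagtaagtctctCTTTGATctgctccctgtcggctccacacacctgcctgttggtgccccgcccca
Wnt11: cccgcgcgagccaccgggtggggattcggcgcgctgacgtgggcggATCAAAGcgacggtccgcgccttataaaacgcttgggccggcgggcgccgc
A match describes the letters only.

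The 2 genes of ligand secretion were expressed in all fractions. Wls, the carrier that brings Wnt proteins to the cell surface, stood at 19.8 and 20.8 FPKM in Sox10+EpCAM+ cells, 18.2 and 18.0 in CD24+CD49f+ cells, 23.6 and 26.5 in CD24low stroma and 20.1 in the EpCAM-negative library, and was called in 0 comparisons (limma; unadjusted p under 0.05 in 1 of the 2 sorts, with a difference of -0.45 in the CD24 sort). Porcn, the enzyme that attaches the lipid, stood at 2.04 and 2.41 FPKM in Sox10+EpCAM+ cells, 1.64 and 1.64 in CD24+CD49f+ cells, 0.922 and 0.875 in CD24low stroma and 0.871 in the EpCAM-negative library. Its libraries did not overlap between compartments, and it was called in the Sox10 sort (0.78 ± 0.18, limma, adjusted p = 0.027), a call lost without any 1 of 4 libraries (either Sox10+EpCAM+ fMaSC or either CD24low stroma library) and under TPM scaling.

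The Frizzled receptors of the compartments also differed in kind. Their summed level ran from 63.3 to 91.2 FPKM in fMaSC and from 57.3 to 77.4 in stroma, so that the compartments overlapped. Of the 15 receptors and co-receptors 14 were tested, and 4 were called higher in fMaSC in both sorts (Fzd3, Fzd6, Fzd7 and Fzd9), while Fzd1, Fzd2 and Fzd4 were called lower in the Sox10 sort. Fzd7 (ENSMUSG00000041075, chromosome 1, 59482147 to 59486947), a receptor known from mammary and other epithelial progenitors, was the most abundant Frizzled of fMaSC, with 54.8% and 52.9% of the sum in Sox10+EpCAM+ libraries and 35.9% and 36.3% in CD24+CD49f+ libraries. Fzd2 led in stroma, with 28.7%, 29.8% and 27.9% in the 3 libraries.

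Fzd7 stood at 41.0 and 44.5 FPKM in Sox10+EpCAM+ cells, 22.7 and 33.2 in CD24+CD49f+ cells, 14.5 and 11.3 in CD24low stroma and 14.6 in the EpCAM-negative library. The compartments did not overlap, yet the call in the CD24 sort (1.04 ± 0.24, limma, adjusted p = 0.046) was kept in 2 of 12 other settings only, against 9 of 12 in the Sox10 sort (1.49 ± 0.29, adjusted p = 0.014). Fzd6, a receptor of tissue polarity, stood at 8.36 and 9.33 FPKM in Sox10+EpCAM+ cells, 5.27 and 5.84 in CD24+CD49f+ cells, 0.558 and 0.286 in CD24low stroma and 0.247 in the EpCAM-negative library. Fzd9 stood at 6.37 and 7.26, 3.21 and 3.34, 0.219 and 0.113, and 0.236 FPKM, with the fractions in that order. These 2 receptors were detected at more than 3 FPKM in each fMaSC library and under 1 FPKM in each stroma library, and their calls held in all 12 other settings of both sorts (Fzd6 differed by 2.21 ± 0.18 and 2.98 ± 0.21, Fzd9 by 1.88 ± 0.16 and 2.66 ± 0.19; limma, largest adjusted p among the 4 = 0.0016).

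Fzd3 stood at 5.27 and 6.21 FPKM in Sox10+EpCAM+ cells, 3.64 and 4.71 in CD24+CD49f+ cells, 1.38 and 1.21 in CD24low stroma and 1.45 in the EpCAM-negative library, a smaller separation without overlap (1.17 ± 0.18 and 1.46 ± 0.22 in the 2 sorts, limma, adjusted p = 0.013 and 0.0057). Fzd4, the receptor known from vessels and the norrin ligand, stood at 0.845 and 0.798 FPKM in Sox10+EpCAM+ cells, 5.47 and 9.48 in CD24+CD49f+ cells, 16.4 and 13.0 in CD24low stroma and 11.9 in the EpCAM-negative library. It was called in the Sox10 sort (-2.82 ± 0.32, limma, adjusted p = 0.0022) and not in the CD24 sort (-0.93 ± 0.26, adjusted p = 0.085). Fzd2 followed the same order, with 4.07 and 4.27, 9.97 and 13.4, 22.2 and 17.1, and 18.3 FPKM, and differed by -1.90 ± 0.26 in the Sox10 sort (limma, adjusted p = 0.0040) and by -0.70 ± 0.21 in the CD24 sort (adjusted p = 0.10).

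Fzd1 stood at 3.06 and 4.58 FPKM in Sox10+EpCAM+ cells, 7.05 and 13.0 in CD24+CD49f+ cells, 15.4 and 9.49 in CD24low stroma and 13.1 in the EpCAM-negative library. The CD24 sort overlapped, and the call in the Sox10 sort (-1.57 ± 0.43, limma, adjusted p = 0.045) was kept in 6 of 12 other settings: it was lost under TPM scaling, with no filter, and without either Sox10+EpCAM+ fMaSC or either CD24low stroma library. The co-receptors of the canonical branch did not separate the compartments. Lrp5 stood at 18.1 and 21.2 FPKM in Sox10+EpCAM+ cells, 10.3 and 19.6 in CD24+CD49f+ cells, 9.67 and 6.42 in CD24low stroma and 12.1 in the EpCAM-negative library. Lrp6 stood at 20.8 and 24.2, 11.5 and 25.2, 14.3 and 10.6, and 17.7 FPKM. For both genes CD24+CD49f+ fMaSC replicate 1 fell among the stroma libraries, and the 95% interval of the pooled difference ran from 0.14 to 1.31 for Lrp5, with an adjusted p above the threshold (limma, 0.070), and from -0.24 to 1.03 for Lrp6. The other tested receptors (Fzd5, Fzd8, Ror1, Ror2 and Ryk) ran between 1.30 and 18.2 FPKM over all libraries and were called in 0 comparisons by limma; at an unadjusted p under 0.05 the fit of both sorts held Fzd5 and Ryk, the Sox10 sort Fzd8 and Ror2, and the comparison of the fMaSC fractions Fzd8. Fzd10 was not tested and ran from 0.113 to 1.11 FPKM.

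**Figure D3:**
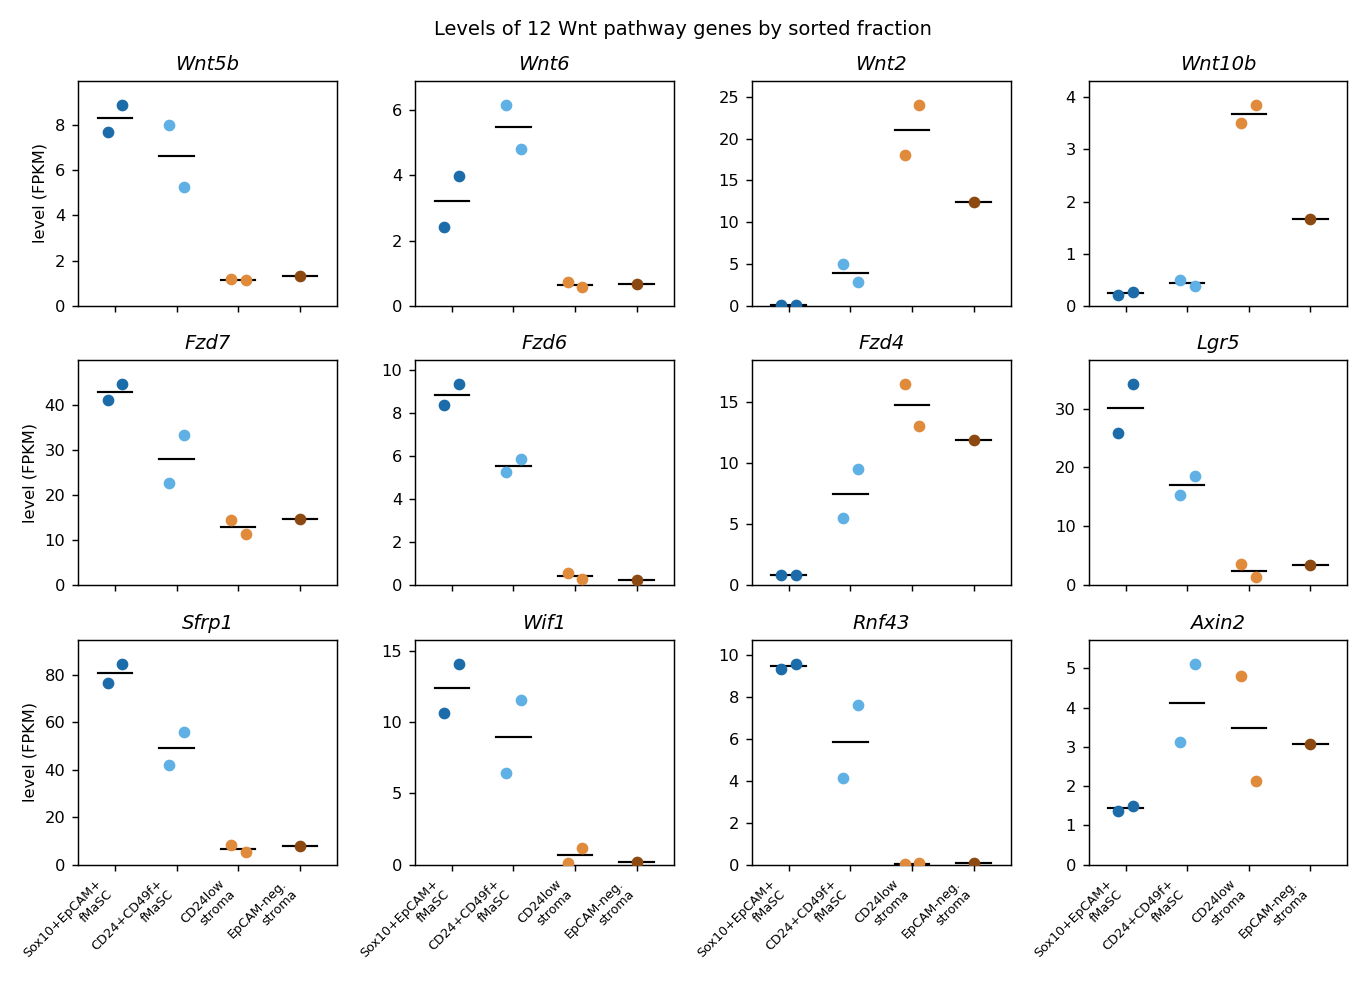
Levels (FPKM, linear axes from 0) of 12 genes, with a point for each library, a black line at the group mean, and the 4 sorted fractions along the axis; EpCAM-negative stroma has 1 library. The 2 fMaSC fractions lie above both stroma fractions for Wnt5b, Wnt6, Fzd7, Fzd6, Lgr5, Sfrp1, Wif1 and Rnf43, and below them for Wnt2, Wnt10b and Fzd4; for Axin2 the mean of Sox10+EpCAM+ fMaSC lies below both stroma fractions and that of CD24+CD49f+ fMaSC above both.

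On the R-spondin axis Lgr4, Lgr5 and Lgr6, the receptors, were called higher in fMaSC in both sorts, and the ligands Rspo1 and Rspo3 were not called. Lgr5 (ENSMUSG00000020140, chromosome 10, 115450311 to 115587780, minus strand) stood at 25.9 and 34.1 FPKM in Sox10+EpCAM+ cells, 15.4 and 18.5 in CD24+CD49f+ cells, 3.54 and 1.34 in CD24low stroma and 3.46 in the EpCAM-negative library. The compartments did not overlap, and the differences were 2.45 ± 0.34 in the CD24 sort (limma, adjusted p = 0.0087) and 2.78 ± 0.42 in the Sox10 sort (adjusted p = 0.0053). Lgr4 stood at 28.5 and 31.8 FPKM in Sox10+EpCAM+ cells, 17.3 and 20.4 in CD24+CD49f+ cells, 9.30 and 8.02 in CD24low stroma and 9.24 in the EpCAM-negative library, with differences of 1.04 ± 0.18 and 1.60 ± 0.22 (limma, adjusted p = 0.019 and 0.0039). The call of Lgr4 in the CD24 sort was kept in 6 of 12 other settings and was lost under TPM scaling, with only the groups compared, and without either Sox10+EpCAM+ fMaSC or either CD24low stroma library (adjusted p up to 0.603).

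In fMaSC the levels of Lgr4 and Lgr5 were close to each other, Lgr5 holding 45.7% to 50.3% of the summed level of the 3 Lgr genes in the 4 libraries, while in stroma Lgr5 held 14.3% to 27.4% and Lgr4 71.8% to 85.1%. Lgr6 was much lower, at 1.62 and 1.86 FPKM in Sox10+EpCAM+ cells, 0.821 and 1.56 in CD24+CD49f+ cells, 0.113 and 0.0577 in CD24low stroma and 0.0725 in the EpCAM-negative library. Its differences were 0.99 ± 0.20 and 1.35 ± 0.25 (limma, adjusted p = 0.031 and 0.011), and its call in the CD24 sort was kept in 4 of 11 other settings. Rspo1 ran from 0.183 to 2.09 FPKM in fMaSC and from 1.01 to 4.99 in stroma, and Rspo3 from 0.0600 to 4.67 and from 1.21 to 2.37. Both R-spondins were lowest in the 2 Sox10+EpCAM+ libraries, and neither was called (limma, unadjusted p under 0.05 for Rspo1 in the Sox10 sort and for Rspo3 between the fMaSC fractions).

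Among the secreted inhibitors, Sfrp1 and Wif1 were called higher in fMaSC in both sorts. Sfrp1 (ENSMUSG00000031548, chromosome 8, 23411502 to 23449632), a secreted Frizzled-like protein that binds Wnt ligands, stood at 76.5 and 84.6 FPKM in Sox10+EpCAM+ cells, 42.1 and 55.9 in CD24+CD49f+ cells, 8.02 and 5.31 in CD24low stroma and 7.69 in the EpCAM-negative library. Its mean in Sox10+EpCAM+ fMaSC, 80.6 ± 5.70 FPKM (SD, n = 2), was the second highest among the members after that of Ctnnb1. The differences were 2.72 ± 0.25 in the CD24 sort (limma, adjusted p = 0.0022) and 3.23 ± 0.30 in the Sox10 sort (adjusted p = 0.0011), and both calls held in all 12 other settings. Wif1, another secreted protein that binds Wnt ligands, stood at 10.6 and 14.1 FPKM in Sox10+EpCAM+ cells, 6.44 and 11.5 in CD24+CD49f+ cells, 0.0989 and 1.19 in CD24low stroma and 0.162 in the EpCAM-negative library. The compartments did not overlap, the CD24low libraries lay far apart, and the differences were 2.64 ± 0.40 and 3.51 ± 0.49 (limma, adjusted p = 0.012 and 0.0043).

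Sfrp2, the paralogue of Sfrp1, did not separate the compartments. It stood at 15.3 and 20.7 FPKM in Sox10+EpCAM+ cells, 28.8 and 39.4 in CD24+CD49f+ cells, 38.3 and 32.0 in CD24low stroma and 23.5 in the EpCAM-negative library, with a pooled difference of -0.18 (95% interval from -0.64 to 0.27). The share of Sfrp1 in the summed level of the 4 Sfrp genes was 83.2% and 80.1% in Sox10+EpCAM+ fMaSC, 54.4% and 55.7% in CD24+CD49f+ fMaSC, and 12.6% to 22.2% in stroma, where Sfrp2 held 67.7% to 76.1%. Sfrp4 stood at 0.105 and 0.0385 FPKM in Sox10+EpCAM+ cells, 3.48 and 3.88 in CD24+CD49f+ cells, 6.14 and 4.54 in CD24low stroma and 3.34 in the EpCAM-negative library. It was nearly absent from Sox10+EpCAM+ cells alone, and was called in the Sox10 sort (-2.02 ± 0.23, limma, adjusted p = 0.0020) and not in the CD24 sort (-0.43 ± 0.18, adjusted p = 0.22).

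Dkk2 (ENSMUSG00000028031, chromosome 3, 132085292 to 132180293), a secreted protein that binds the Lrp5 and Lrp6 co-receptors, stood at 0.0757 and 0.121 FPKM in Sox10+EpCAM+ cells, 4.74 and 9.37 in CD24+CD49f+ cells, 6.43 and 6.80 in CD24low stroma and 6.99 in the EpCAM-negative library. Both Sox10+EpCAM+ libraries lay far below the other 5, and the CD24+CD49f+ libraries enclosed the values of stroma. Dkk2 was called in the Sox10 sort (-2.86 ± 0.35, limma, adjusted p = 0.0027), while in the CD24 sort its difference was 0.02 (95% interval from -0.68 to 0.72). Sfrp5 was the one member called higher in the CD24 sort and not in the Sox10 sort: it stood at 0.0964 and 0.194 FPKM in Sox10+EpCAM+ cells, 2.92 and 1.30 in CD24+CD49f+ cells, 0.288 and 0.208 in CD24low stroma and 0.186 in the EpCAM-negative library. Its call (1.27 ± 0.26, limma, adjusted p = 0.033) was kept in 3 of 10 other settings. Dkk3 (5.29 to 8.92 FPKM) and the Dkk receptor Kremen1 (6.45 to 17.7 FPKM) were called in 0 comparisons by limma, with unadjusted p under 0.05 for Kremen1 in the fit of both sorts. Frzb was not tested and ran from 0.0112 to 1.08 FPKM.

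The feedback targets did not move as 1 block. Rnf43 (ENSMUSG00000034177, chromosome 11, 87662722 to 87735539), a membrane ubiquitin ligase that removes Frizzled receptors, stood at 9.31 and 9.56 FPKM in Sox10+EpCAM+ cells, 4.12 and 7.58 in CD24+CD49f+ cells, 0.0414 and 0.0514 in CD24low stroma and 0.0909 in the EpCAM-negative library. All fMaSC libraries were above 4 FPKM and all stroma libraries under 0.1, with differences of 2.66 ± 0.26 in the CD24 sort (limma, adjusted p = 0.0027) and 3.26 ± 0.32 in the Sox10 sort (adjusted p = 0.0013). These calls held in all 12 other settings. Its homologue Znrf3 stood at 5.01 and 5.25 FPKM in Sox10+EpCAM+ cells, 2.71 and 4.39 in CD24+CD49f+ cells, 1.85 and 1.30 in CD24low stroma and 1.77 in the EpCAM-negative library, and was called in the Sox10 sort (1.14 ± 0.28, limma, adjusted p = 0.031), a call kept in 6 of 12 other settings and lost without either Sox10+EpCAM+ fMaSC or either CD24low stroma library.

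Nkd2, an inhibitor that binds Dishevelled, stood at 6.23 and 8.13 FPKM in Sox10+EpCAM+ cells, 6.41 and 7.41 in CD24+CD49f+ cells, 1.36 and 0.850 in CD24low stroma and 1.56 in the EpCAM-negative library. The 2 fMaSC fractions overlapped and lay above stroma, by 1.92 ± 0.21 in the CD24 sort (limma, adjusted p = 0.0041) and 1.67 ± 0.26 in the Sox10 sort (adjusted p = 0.0059). Its paralogue Nkd1 was called in 0 comparisons (limma; unadjusted p under 0.05 in the Sox10 sort and between the fMaSC fractions): it ran from 0.596 to 0.773 FPKM in Sox10+EpCAM+ fMaSC, stood at 1.77 and 5.18 in CD24+CD49f+ fMaSC, and ran from 2.78 to 4.18 in stroma.

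Axin2 (ENSMUSG00000000142, chromosome 11, 108920349 to 108950783), the scaffold protein most used as a readout of beta-catenin signalling, was not called in any of the 6 comparisons. Its level was 1.35 and 1.50 FPKM in Sox10+EpCAM+ cells, 3.12 and 5.12 in CD24+CD49f+ cells, 4.81 and 2.13 in CD24low stroma and 3.07 in the EpCAM-negative library. The CD24+CD49f+ libraries overlapped with stroma and the Sox10+EpCAM+ libraries were the lowest of the 7. The difference was 0.24 in the CD24 sort (95% interval from -0.59 to 1.06), -0.75 in the Sox10 sort (from -1.76 to 0.27) and -0.16 in both sorts together (from -0.89 to 0.58). Between the fMaSC fractions its difference was -1.05 ± 0.34 (limma, adjusted p = 0.12).

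CD24+CD49f+ fMaSC replicate 2 held the highest level of 12 of the 53 members (Wnt3, Fzd10, Lrp6, Ror1, Sfrp2, Dkk2, Frzb, Rspo3, Axin2, Lef1, Nkd1 and Notum). Lef1 stood at 2.22 FPKM there and from 0.188 to 0.712 in the other 6 libraries. Notum, a secreted enzyme that removes the lipid from Wnt proteins, stood at 1.03 there and from 0.0242 to 0.211 elsewhere. Lef1 and Notum were picked after their values were seen. Among the 45 tested members Sox10+EpCAM+ fMaSC replicate 2 held the highest level of 19 (42.2%), beside 14.9% over all genes tested. Replicate 1 of that fraction held that of 0, beside 18.3%. CD24+CD49f+ fMaSC replicate 2 held that of 7 (15.6%), beside 17.8% over all genes tested, so its share was near that of all genes. The summed fibroblast markers stood at 2533 FPKM in that library and at 1632 in replicate 1 of the same fraction, and the summed epithelial markers at 297 and 473; their part in these values was not tested.

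Of the nuclear effectors, Ctnnb1 was the most abundant member. Ctnnb1 stood at 205 and 233 FPKM in Sox10+EpCAM+ cells, 144 and 179 in CD24+CD49f+ cells, 101 and 86.1 in CD24low stroma and 87.6 in the EpCAM-negative library. The compartments did not overlap, and the gene, whose protein also serves in adherens junctions, was called in the Sox10 sort (1.31 ± 0.30, limma, adjusted p = 0.025) and not in the CD24 sort (0.78 ± 0.25, adjusted p = 0.11). The call was lost under TPM or quantile scaling and without either Sox10+EpCAM+ fMaSC or either CD24low stroma library. Tcf7 stood at 7.01 and 7.46 FPKM in Sox10+EpCAM+ cells, 3.98 and 5.51 in CD24+CD49f+ cells, 0.893 and 0.434 in CD24low stroma and 0.436 in the EpCAM-negative library, and was higher by 1.79 ± 0.22 and 2.52 ± 0.27 in the 2 sorts (limma, adjusted p = 0.0057 and 0.0016).

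The other factors of the family did not follow Tcf7. Tcf7l1, a factor that mostly represses targets, stood at 12.9 and 14.6 FPKM in Sox10+EpCAM+ cells, 14.6 and 27.5 in CD24+CD49f+ cells, 26.8 and 22.1 in CD24low stroma and 27.5 in the EpCAM-negative library. Tcf7l2 ran from 9.06 to 16.3 FPKM in fMaSC and from 14.8 to 18.5 in stroma. Neither was called (limma; unadjusted p under 0.05 for Tcf7l1 in the Sox10 sort), and the 95% interval of the pooled difference ran from -1.15 to 0.07 for Tcf7l1 and from -1.02 to 0.01 for Tcf7l2. Tcf7 held 22.8% and 22.5% of the summed level of Lef1, Tcf7, Tcf7l1 and Tcf7l2 in Sox10+EpCAM+ fMaSC and 14.0% and 10.7% in CD24+CD49f+ fMaSC, while Tcf7l1 held the largest share in each of the 7 libraries, from 41.9% to 59.9%.

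**Figure D4:**
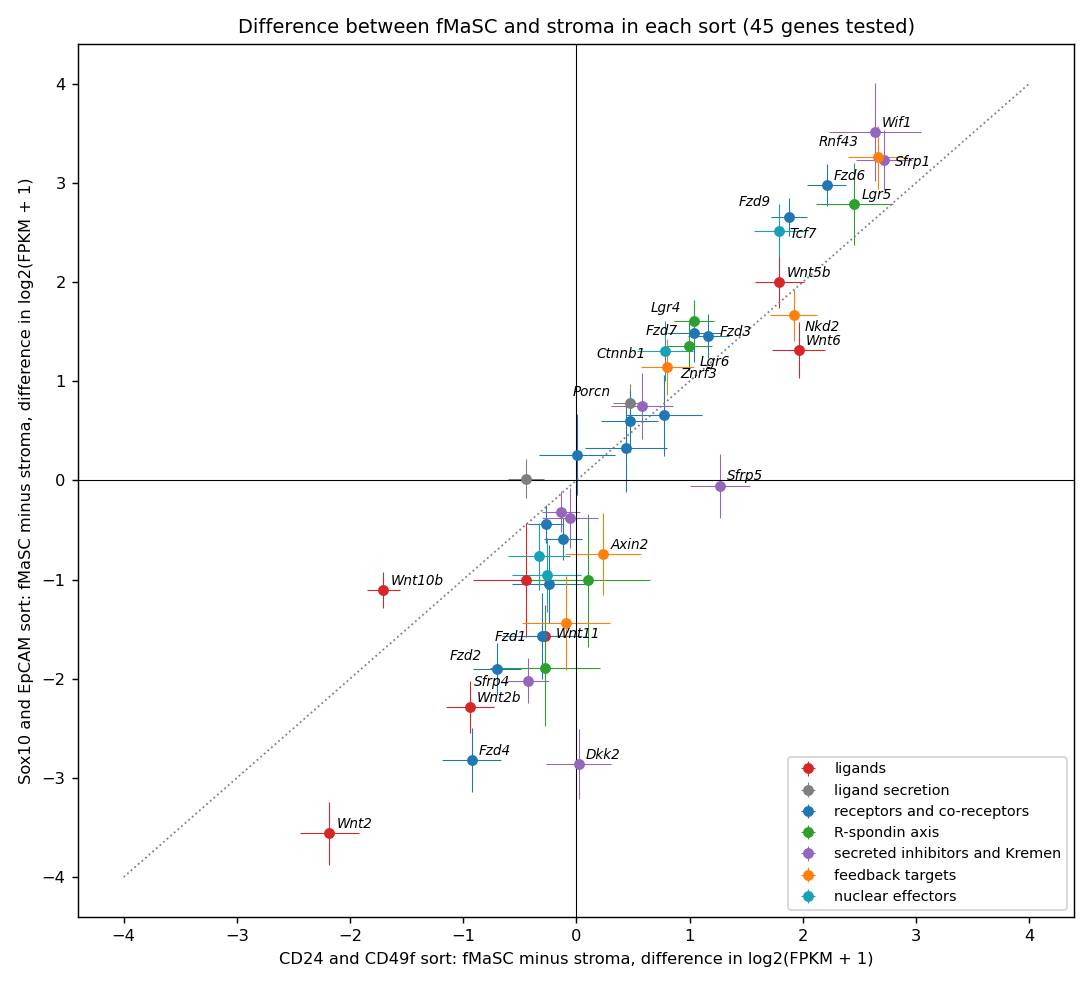
Difference between fMaSC and stroma in log2(FPKM + 1) for the 45 tested genes, in the CD24 sort (horizontal) and the Sox10 sort (vertical); bars are limma standard errors, colours are roles, the dotted line marks equal differences, and names are given to called genes and Axin2. Wif1, Rnf43, Sfrp1 and Fzd6 lie at the upper right, Wnt2 at the lower left, and Dkk2 on the vertical axis at 0.02 in the CD24 sort and -2.86 in the Sox10 sort.

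The fMaSC fractions of the 2 sorts were also compared with each other. Of the 45 members 9 were called, 1 higher and 8 lower in Sox10+EpCAM+ than in CD24+CD49f+ cells, against 9.99% of all genes tested (1.95% higher and 8.04% lower). Fzd9 was the higher one (0.87 ± 0.16, limma, adjusted p = 0.025). The lower ones were Dkk2 (-2.81 ± 0.29, adjusted p = 0.0038), Fzd4 (-2.18 ± 0.26), Sfrp4 (-2.13 ± 0.18, adjusted p = 0.0026), Wnt2 (-2.08 ± 0.26), Wnt11 (-1.59 ± 0.26), Wnt2b (-1.58 ± 0.21), Sfrp5 (-1.39 ± 0.26) and Fzd2 (-1.28 ± 0.21). The calls of Dkk2 and Sfrp4 were kept in all 12 other settings; only 2 of the members were called without either Sox10+EpCAM+ library, 4 with no filter on low values and 14 without CD24+CD49f+ fMaSC replicate 1, and quantile scaling gave 2 higher and 7 lower. Of the 14 genes called higher in fMaSC in both sorts all but Wnt6 had the higher mean in Sox10+EpCAM+ cells, and Fzd9 was the one called here. Sfrp1 differed by 0.72 (95% interval from 0.11 to 1.32), Rnf43 by 0.66 (from 0.02 to 1.29) and Lgr5 by 0.78 (from -0.05 to 1.61). All 6 epithelial markers also had the higher mean in Sox10+EpCAM+ cells, from Epcam (225 against 113 FPKM) to Krt5 (28.8 against 20.8). The same share over all genes called higher in both sorts was not computed, so whether the order is particular to these members was not tested.

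The stromal members kept different levels in CD24+CD49f+ fMaSC. Of the 9 members called lower in the Sox10 sort, the mean level in CD24+CD49f+ fMaSC was 11.8% of that in CD24low stroma for Wnt10b, 18.7% for Wnt2, 44.3% for Wnt2b, 50.7% for Fzd4, 59.6% for Fzd2, 68.9% for Sfrp4, 80.6% for Fzd1, 82.2% for Wnt11 and 107% for Dkk2. The same ratio ran from 29.7% (Pdgfrb) to 63.8% (Pdgfra) over the 6 fibroblast markers, with a median of 38.0%, from 24.3% to 36.9% over the 4 adipocyte markers and from 19.3% to 60.1% over the 4 pericyte markers. By these means Wnt10b and Wnt2 lay below all 6 fibroblast markers and Dkk2, Wnt11, Fzd1 and Sfrp4 above all 6. The order did not hold in each library: in replicate 1 Wnt2 stood at 23.7% and Col1a1 at 23.3%, and in replicate 2 Sfrp4 stood at 72.6% and Pdgfra at 96.9%. In Sox10+EpCAM+ fMaSC the level was 1.10% (Wnt2) to 29.1% (Fzd1) of that in EpCAM-negative stroma for the 9 members and 0.753% to 10.3% for the fibroblast markers. The 9 members were taken by their calls and the ratios carry no test; whether the order comes from the cells mixed into this fraction was not tested.

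**Figure D5:**
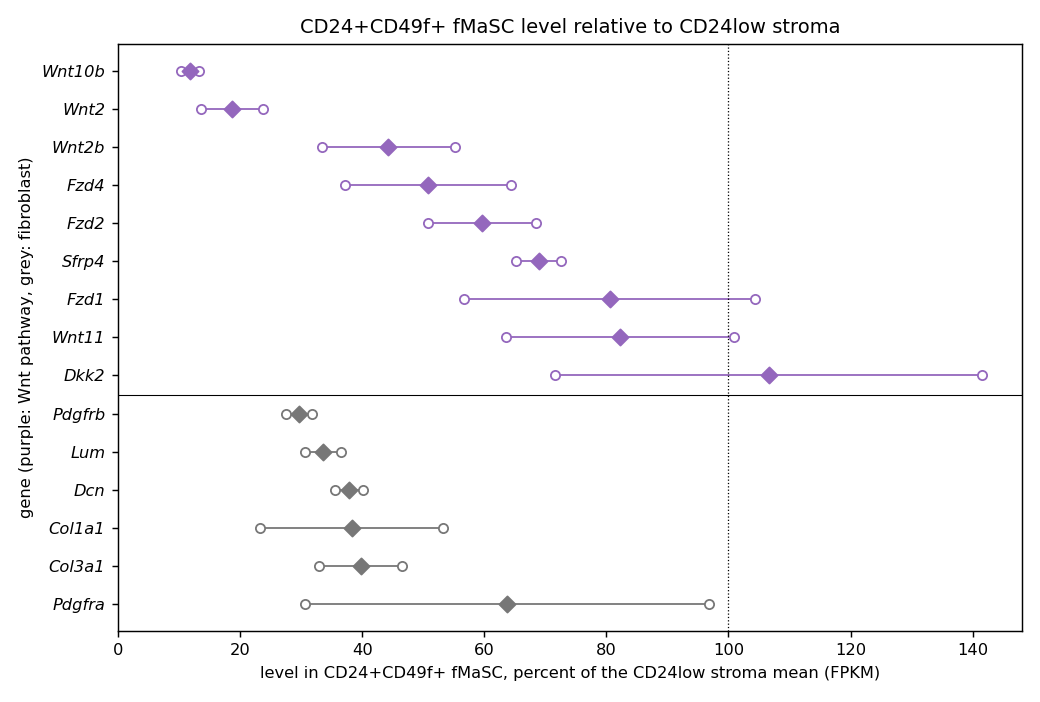
Level in CD24+CD49f+ fMaSC as a percentage of the mean in CD24low stroma, for the 9 members called lower in the Sox10 sort (purple) and the 6 fibroblast markers (grey); diamonds are the mean of 2 libraries, open circles the libraries, and the dotted line marks 100%. Wnt10b (11.8%) and Wnt2 (18.7%) lie to the left of all fibroblast markers by their means, and Dkk2 (107%) lies to the right, with its 2 libraries on either side of the dotted line.

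Whether the difference between fMaSC and stroma itself differed between the sorts was tested as an interaction. It was called for 1 of the 45 members, Dkk2, against 1.51% of all genes tested: its difference was lower in the Sox10 sort than in the CD24 sort by 2.88 on the log2 scale (-2.88 ± 0.45, limma, adjusted p = 0.048). The call was kept in 3 of 11 other settings, with a pseudocount of 0.1 and without either CD24+CD49f+ fMaSC library, and its adjusted p ran up to 0.246 over the settings. It was lost without any 1 of the Sox10+EpCAM+ fMaSC or CD24low stroma libraries. Without CD24+CD49f+ fMaSC replicate 1 the interaction was called for 7 members (Wnt2b, Wnt11, Fzd4, Sfrp4, Dkk2, Rspo3 and Nkd1), all lower in the Sox10 sort. For the other members called in 1 sort only, a difference between the sorts was not shown.

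Between the stroma fractions limma called 0 of the 45 members, against 0.0277% of all genes tested (4 genes). At an unadjusted p under 0.05 there was 1 member, Wnt10b, at 1.67 FPKM in EpCAM-negative and 3.52 and 3.85 in CD24low stroma (difference of -0.81, 95% interval from -1.25 to -0.36). With 1 EpCAM-negative library this comparison has little precision: for Lrp6 the interval ran from -0.61 to 1.58 and for Wnt5a from -1.69 to 1.11.

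The wider pathway was followed through 69 further genes (other ligands, inhibitors, cytoplasmic and polarity components and targets), of which 51 were tested. In the fit of both sorts 15 were called higher and 6 lower in fMaSC, in the CD24 sort 9 and 1, and in the Sox10 sort 12 and 13. All genes tested were called at 15.6% higher and 9.5% lower, 7.78% and 2.94%, and 12.5% and 13.6% in the same comparisons. The 6 called genes with the largest differences in the fit of both sorts are given here. Sostdc1, a secreted inhibitor of Wnt and BMP signals known from ectodermal organs, stood at 51.1 and 45.2 FPKM in Sox10+EpCAM+ cells, 45.5 and 40.6 in CD24+CD49f+ cells, 2.16 and 1.95 in CD24low stroma and 0.839 in the EpCAM-negative library, a difference of 4.20 ± 0.21 (limma, adjusted p = 1.0e-04) that exceeded that of every member. The polarity cadherins Celsr2 and Celsr1 were higher by 2.80 ± 0.23 and 1.89 ± 0.18, the Dishevelled partner Dact2 by 1.99 ± 0.28 and the cell cycle gene Ccnd1, a known target, by 1.53 ± 0.19. Ccnd1 stood from 43.9 to 77.8 FPKM in the 4 fMaSC libraries and from 16.2 to 21.3 in stroma. Cthrc1, a secreted protein that binds Wnt and Frizzled proteins, was lower (-2.35 ± 0.36, limma, adjusted p = 0.0055), at 0.861 and 0.553 FPKM in Sox10+EpCAM+ cells, 17.2 and 7.35 in CD24+CD49f+ cells, 41.4 and 45.7 in CD24low stroma and 13.5 in the EpCAM-negative library.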

How the data were processed

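RNA of 7 libraries was made, per the labels' protocols, with Illumina TruSeq kits and sequenced as 100-base paired ends. The submitters' processing notes name STAR, Cufflinks and the build GRCm38 (mm10); versions are not given in the sources used here. The authors deposited 1 table of FPKM, as its header says, in which each library has a column; 8 added sequences in it were left out. The title of 1 Sox10+EpCAM+ library does not mention lineage-negative sorting. The Sox10 overexpression samples that the labels' protocols describe are not analysed here.

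The members and gene lists were chosen with earlier results of these data known, so the number of members called is a description. Symbols were matched without regard to case, and all 53 identifiers match GENCODE vM21. Per-library values are given for members that were called in a comparison or reached 20 FPKM; of the other pathway genes up to 6 with the largest called difference are named. Axin2, Nkd1, Lef1, Notum, Frzb and Rspo3 are given more fully, outside this rule.

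Limma 3.58.1 (R 4.3.3) was run on log2(FPKM + 1) with a mean for each of 4 groups and a mean-dependent prior (trend); 3 residual degrees of freedom remained, or 4 in the fit of both sorts. All tests are two-sided, and p was adjusted by Benjamini-Hochberg over 14418 genes, with 0.05 as the threshold. The lone EpCAM-negative library is assumed to vary like the other groups. Depth was estimated from low values, of which 51.9% to 58.8% lay near whole fragments, so it is approximate. The 12 alternatives were a pseudocount of 0.1, no filter, TPM, median-ratio and quantile scaling, a fit of only the groups compared, and leaving out each of 6 libraries. Simulated data with 14418 genes, of which 200 were changed, were used to test the script. A log2 change of 2 was recovered for 71.8% of changed genes in the CD24 sort, 36.8% in the Sox10 sort and 93.0% in both together. A log2 change of 1 was recovered for 4.00%, 0.25% and 49.2% in the same order. In the data 1545, 3762 and 3621 genes were called in these comparisons, so the rates describe the simulated setting only. Tables and figures were made in Python. Promoter sequences are from RefSeq (GRCm38.p6).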

Additional observations from a re-analysis of the deposited data

Results flagged for a closer look

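The difference between fMaSC and stroma in Dkk2 differed between the sorts by limma's interaction test, at -2.88 on the log2(FPKM + 1) scale (adjusted p = 0.048), with 1 of 45 members called against 1.51% of all genes tested. CD24+CD49f+ fMaSC stood at 4.74 and 9.37 FPKM and Sox10+EpCAM+ fMaSC at 0.0757 and 0.121. The call was lost in 8 of 11 other settings, and with a pseudocount of 0.1 the test called 5 members.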

How the results depend on the processing

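Over all called members, comparisons and settings, a call was kept 716 times, lost 162 times and reversed 0 times. The count of members called moved by more than 1.5 times in these cases. TPM scaling gave 9 in the CD24 sort (18), 15 in the Sox10 sort (26) and 5 between the fMaSC fractions (9), where no filter on low values gave 4. The interaction (1) gave 5 with a pseudocount of 0.1 and 0 with no filter or under TPM, median-ratio or quantile scaling. Leaving out a library gave 8 to 19 in the CD24 sort, 2 to 14 between the fMaSC fractions and 0 to 7 for the interaction. The cause of these moves was not tested. With a library left out the count stayed within 1.5 times in the Sox10 sort (18 to 31) and in both sorts (17 to 32), and at 0 between the stroma fractions. TPM scaling moved the median difference of all genes from 0.13 to -0.11 in the CD24 sort, from 0.09 to -0.63 in the Sox10 sort and from 0.12 to -0.32 in both. Calls kept in every setting numbered 5 of 18 in the CD24 sort, 12 of 26 in the Sox10 sort, 14 of 22 in both sorts and 2 of 9 between the fMaSC fractions. A fit without the lone EpCAM-negative library could not be made, since its group would be empty. No paired analysis was possible because the labels pair no libraries. Depth limits members under 1 FPKM, where a single fragment on a 2 kb transcript corresponds to about 0.0145 to 0.0219 FPKM.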
